A study of Sus scrofa with 32 samples.

Results

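The regions described here were 4645 distal sites of H3K27ac, an acetylation of histone H3 found at active promoters and enhancers, that carried a peak in proliferating pig muscle satellite cells and none after 60 h of differentiation. They were chosen by the deposited peak lists of the 4 WT libraries. Peaks of all 8 H3K27ac lists were merged where they shared at least 1 bp. A region was kept when it lay over 2.5 kb from both ends of every protein-coding gene, had a peak in both WT 0h lists and had none in either WT 60h list. The 4645 regions, called lost regions below, made up 12% of 38762 merged regions and 17.0% of 27267 distal regions. The loss of H3K27ac between WT 0h and WT 60h is therefore what selected them, and it is given as a description with no test. For comparison, 4559 distal regions had a peak in all 4 WT lists (stable regions), and 5145 had one in both WT 60h lists and in neither WT 0h list (gained regions).

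The series profiled H3K27ac, H3K4me3 and H3K27me3 by CUT&Tag, in which an antibody directs a transposase to the marked chromatin, in 4 conditions with 2 libraries each. WT 0h and WT 60h were cells with no inhibitor named for them, in proliferation and at 60 h of differentiation. CBP 0h and CBP 60h were cells given SGC-CBP30 for 48 h in proliferation or 60 h in differentiation, at a dose the labels write as 5 uM/ml. No allele or transgene is named for any group, all groups share the cell type, and no source says that the 2 libraries of a group came from separate cultures, so the spread between them may be technical. The labels disagree among themselves: 1 field names a C3H line and the growth protocol RPMI, while organism and cell type give pig satellite cells, and the treatment field of 60 h samples reads proliferation. Time was therefore taken from the titles.

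Satellite cells are the resident stem cells of skeletal muscle. They proliferate as myoblasts, leave the cell cycle and fuse into myofibres under the myogenic factors MYOD1 and MYOG. CBP and its paralogue p300 are the acetyltransferases that place H3K27ac at enhancers, and SGC-CBP30 binds their bromodomains, the modules that read acetylated lysines. Distal H3K27ac marks enhancers that are in use in a given cell state, and H3K4me3 marks promoters of active or poised genes.

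The 8 H3K27ac lists held 8947 to 23278 peaks on placed chromosomes. They held 19451 and 17276 peaks at WT 0h, 23278 and 21556 at WT 60h, 10940 and 8947 at CBP 0h, and 16939 and 13698 at CBP 60h. The shorter CBP 0h lists touch every statement below on CBP 0h, and their part in those results was not tested. Of 8 satellite cell markers, 6 had an H3K4me3 peak near their gene ends in both WT 0h libraries (PAX7, MYF5, MYOD1, CDH15, SDC4 and ITGA7), and VCAM1 and CALCR were listed at 0 there. At WT 60h 6 had one, at CBP 0h 5, with MYOD1 listed at 0, and at CBP 60h 7. Their summed length was 18.3 and 18.4 kb at WT 0h, 22.7 and 22.8 kb at WT 60h, 13.2 and 12.8 kb at CBP 0h, and 23.3 and 23.5 kb at CBP 60h. Of 7 markers of differentiating muscle, 0 had one at WT 0h or CBP 0h, 7 at WT 60h and 6 at CBP 60h. Among markers of other cells, 4 of 6 fibroblast genes had one in both libraries of every condition, with a summed length of 12.6 and 12.7 kb at WT 0h, 15.8 and 14.8 kb at WT 60h, 7.72 and 7.67 kb at CBP 0h and 14.6 and 13.8 kb at CBP 60h. The other fibroblast markers, DCN and LUM, were listed at 0 at WT 0h and WT 60h. Of 4 endothelial markers 0 had one in any library, and of 3 neuronal markers 0 had one in both libraries of a condition, with 0.44 kb at SYT1 in WT 0h replicate 2. Of 4 adipocyte markers PPARG had one in both libraries of every condition and PLIN1 at CBP 60h only. Of 4 immune markers CD14 alone had one, in both libraries of every condition. In these bulk samples, fewer cells of a type and less mark per cell cannot be told apart.

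Lost regions were short, with a median length of 658 bp and a range of 275 to 3065 bp. Stable regions had a median of 1308 bp and gained regions 774 bp. A gene body held 54.7% of lost regions, against 63.8% of stable, 67.6% of gained and 63.5% of all distal regions. Lost regions also lay farther from gene ends, at a median of 40.2 kb, than stable regions at 33.2 kb or gained regions at 24.3 kb. A protein-coding gene lay within 100 kb of 84.9% of them, and 702 had none that near. Of the distal regions on chromosome 10, 22.6% were lost, against 13.7% on chromosome 2. Just inside the distance limit were lost regions nearest to PGPEP1 and CDKN2B, both 2502 bp from a gene end, and just outside it was a region 2500 bp from the end of GPR19.

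The lost regions ranked highest in both WT 0h lists by the authors' −log10 p had as nearest gene TMEM230, TNC, MAML3, SPRED1, PREX1, CYSLTR2, CACNA2D3 and ASPH (coordinates are on Sscrofa11.1). The one nearest to TMEM230, chr17:14100227-14102280, lay between genes, 23448 bp from that gene. Its peaks covered 1818 and 2054 bp at WT 0h, 0 bp in both WT 60h libraries, 986 and 824 bp at CBP 0h and 0 bp in both CBP 60h libraries. The region 16114 bp from TNC, which encodes the matrix glycoprotein tenascin-C, was chr1:255646495-255647800. It was covered over 1212 and 1293 bp at WT 0h, 667 and 443 bp at CBP 0h, and 338 and 0 bp at CBP 60h. Within the gene body of MAML3, a Notch coactivator, chr8:86934512-86936624 was covered over 2113 and 2020 bp at WT 0h, 1304 and 1055 bp at CBP 0h and 0 bp in both CBP 60h libraries. SPRED1 encodes an inhibitor of Ras signalling. The region 34242 bp from it, chr1:132867905-132868861, was covered over 926 and 957 bp at WT 0h, 643 and 567 bp at CBP 0h and 0 bp at CBP 60h. All 8 of these regions had a peak in both CBP 0h libraries, and 6 had none in either CBP 60h library. The exceptions were the TNC region and the one inside PREX1, each with a peak in CBP 60h replicate 1 only.

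Under the inhibitor in proliferation, a smaller share of lost than of stable regions had a peak. The gap was small when a peak had to cover at least 50% of a region, a rule that also changed both classes. Of lost regions, 45.4% and 39.1% had one in the 2 CBP 0h libraries (42.3% ± 4.41, SD, n = 2), against 64.4% and 58.5% of stable regions (61.5% ± 4.19, SD, n = 2). All 4 values for lost and stable regions were under 100%, which the choice of regions fixed for WT 0h, so the distance from WT 0h is a description. In both CBP 0h libraries, 1697 lost regions (36.5%) had a peak, in 1 of them 532 (11.5%), and in neither 2416 (52.0%). The same shares for stable regions were 56.2% in both and 33.3% in neither. With peaks required to cover at least 50% of a region, in the WT lists too, there were 4950 lost and 2246 stable regions. Of these, 25.9% of lost and 28.7% of stable regions had both. With only peaks of −log10 q of at least 5, these shares were 20.7% of 2779 lost and 34.3% of 1989 stable regions. Gained regions, which had no WT 0h peak by choice, had one in both CBP 0h libraries in 2.41% of cases. Both CBP 0h values for lost regions were below both for stable regions.

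**Figure D1:**
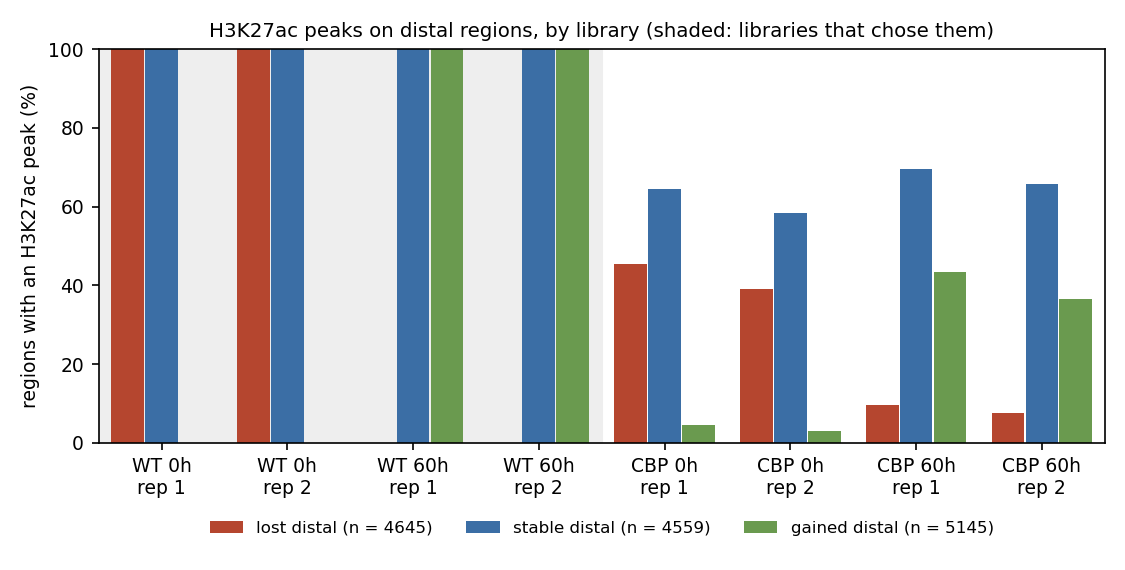
Share of lost, stable and gained distal regions (bars) with an H3K27ac peak in each of the 8 libraries (horizontal axis), in percent (vertical axis); the shaded WT libraries chose the regions. Lost regions were at 45.4 and 39.1% in the CBP 0h libraries and at 9.54 and 7.62% in the CBP 60h libraries, while stable regions were between 58.5 and 69.5% in all 4.

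At 60 h with the inhibitor, few lost regions had a peak. Lost regions had one in 9.54% and 7.62% of cases in the 2 CBP 60h libraries (8.58% ± 1.35, SD, n = 2), and stable regions in 69.5% and 65.7% (67.6% ± 2.65, SD, n = 2). Both CBP 60h values for lost regions were below both CBP 0h values, by 33.7 percentage points on average. An exact two-sided permutation test of the 2 against 2 libraries gave p = 0.333, the smallest that this design allows. In both CBP 60h libraries, 222 lost regions (4.78%) had a peak, against 2721 stable (59.7%) and 1534 gained regions (29.8%).

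Taken region by region, 2166 lost regions (46.6%) had no peak in any of the 4 CBP lists. Another 1445 (31.1%) had one in both CBP 0h libraries and in neither CBP 60h library, the course seen in the WT lists. A peak in all 4 CBP libraries was present at 114 lost regions (2.45%), against 1678 stable regions (36.8%). Of the 1697 lost regions with a peak in both CBP 0h libraries, 85.2% had none at CBP 60h and 6.72% had one in both libraries. For the 2564 stable regions with both CBP 0h peaks these shares were 20% and 65.4%. The opposite course, no peak at CBP 0h and one in both CBP 60h libraries, was found at 80 lost regions (1.72%).

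The share that kept a peak at CBP 0h went with the strength of the WT 0h peak. The 10200 distal regions with a peak in both WT 0h lists, which include the lost and stable regions, were split into 4 equal groups. The split used the worse of their ranks of −log10 p in the WT 0h lists. From the weakest to the strongest group, 23.5%, 30.1%, 43.0% and 63.1% of lost regions had a peak in both CBP 0h libraries. The stable regions of the same groups had one in 33.3%, 39.3%, 56.6% and 78.6% of cases, so lost regions were lower in each group. They were also shorter in each group, with medians of 576 against 1138 bp in the weakest and 920.5 against 1578 bp in the strongest. At or above the median length of lost regions, 52.8% of lost and 57.9% of stable regions had both CBP 0h peaks. Below that length the shares were 20.2% and 30.5%, and the part of length in the gap was not tested. Lost regions were also the weaker class, with 30.0% of them in the weakest group and 15.9% in the strongest. At CBP 60h the 4 groups of lost regions held a peak in both libraries in 4.09%, 3.37%, 5.50% and 7.57% of cases, and those of stable regions in 51.4%, 52.8%, 61.2% and 67.2%.

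**Figure D2:**
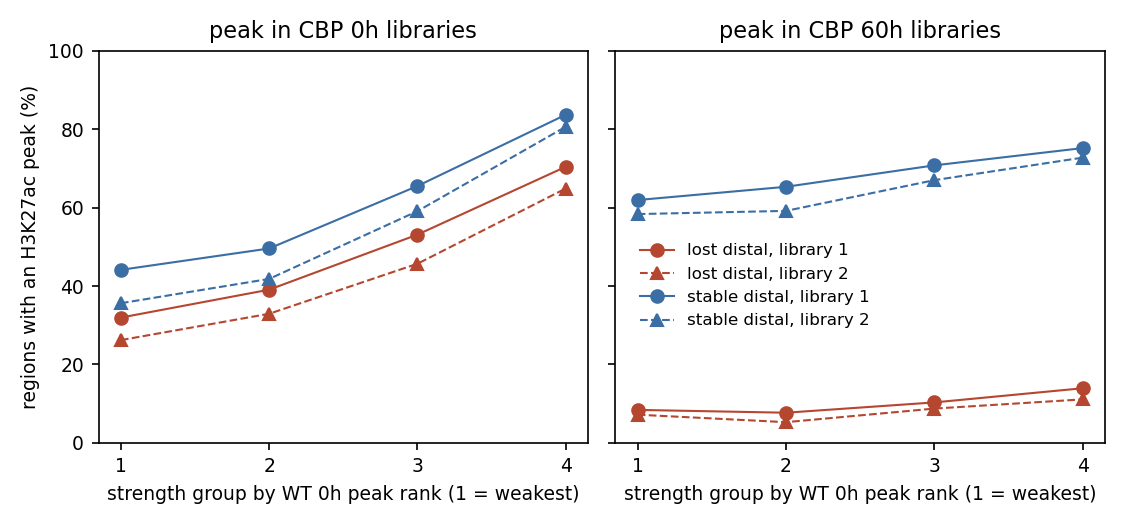
Share of lost (red) and stable (blue) regions with an H3K27ac peak in each CBP 0h (left) and CBP 60h (right) library, in percent, by strength group of WT 0h peak rank from weakest (1) to strongest (4); circles and solid lines are library 1, triangles and dashed lines library 2. Lost regions were at 31.9 and 26.2% in the weakest and 70.4 and 64.9% in the strongest group at CBP 0h.

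By location, lost regions inside gene bodies had both CBP 0h peaks in 35.3% of cases and those between genes in 38.1%. At CBP 60h the shares were 6.22% inside and 3.04% outside genes, and for stable regions 62.9% and 54.0%. Lost regions within 5 kb of a gene end, the nearest of the distal ones, had both CBP 0h peaks in 31.6% of 310 cases, and 748 regions at gene ends with the same WT course had them in 24.7%.

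The length covered by peaks was compared between CBP 60h and CBP 0h with limma over all 14673 regions that had at least 200 bp in at least 2 of the 4 CBP libraries, none of which chose the regions. Of the 4645 lost regions 1850 could be tested, and 1451 were called lower and 87 higher at CBP 60h (adjusted p below 0.05). Of all regions tested, 25.2% were called lower and 46.6% higher. Of 4559 stable regions 3685 were tested, with 671 lower and 1282 higher. Most of these calls, of both classes, were at regions that passed the filter through 1 group, which fixes their direction. Of the 1451 lost regions called lower, 1425 had a peak in both CBP 0h libraries and no base at 60h. Of the stable regions, 503 of the 671 lower calls had no base at 60h and 753 of the 1282 higher calls none at 0h. Among the 114 with at least 200 bp in all 4 CBP libraries, 19 were called lower and 9 higher, with a median change of −0.09 on the log2 scale of bp plus 500. The same group of 1678 stable regions had 141 lower and 449 higher, with a median of 0.17. Without CBP 0h replicate 1 or 2 the calls lower at lost regions came to 2 and 0, since only 372 and 393 lost regions passed the filter then. At an unadjusted p below 0.05 limma had 10 and 13 lower there, and the calls higher were 44 and 0, with 87 and 71 at an unadjusted p below 0.05. Without CBP 60h replicate 1 or 2 calls higher were fewer, over all regions too.

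Of the lost regions ranked highest in both CBP 60h lists, those given here lay near ADAMTS14, CAV3, THSD1, USP9X and ZMIZ1. The region 5822 bp from ADAMTS14, a procollagen-processing protease, was chr14:73557915-73559336. Its peaks covered 1394 and 1243 bp at WT 0h, 0 bp in both WT 60h libraries, 821 and 764 bp at CBP 0h, and 1041 and 1267 bp at CBP 60h. Both CBP 60h values were above both CBP 0h values there. Inside CAV3, which encodes the caveolin of muscle, chr13:65124745-65125588 was covered over 393 and 412 bp at WT 0h, 466 and 431 bp at CBP 0h and 495 and 844 bp at CBP 60h. The region 17592 bp from THSD1, chr11:15649454-15650843, was covered over 1390 and 1353 bp at WT 0h, 712 and 725 bp at CBP 0h, and 998 and 962 bp at CBP 60h. Inside ZMIZ1, which encodes a transcriptional coregulator, chr14:81425019-81425974 was covered over 503 and 367 bp at WT 0h, 318 and 0 bp at CBP 0h, and 701 and 956 bp at CBP 60h. These regions were chosen by their CBP 60h rank, so their values at CBP 60h and the change from CBP 0h are a description, with no test.

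H3K4me3, which was not used to choose the regions, was rare on them and rarer at WT 60h than at WT 0h. It overlapped 4.28% and 4.69% of lost regions at WT 0h (4.49% ± 0.29, SD, n = 2), 1.96% and 1.81% at WT 60h, 2.0% and 1.87% at CBP 0h, and 2.43% and 2.69% at CBP 60h. Both WT 0h values were above all 6 others. Stable regions had it in 18.1% ± 0.59 of cases at WT 0h and 19.3% ± 0.03 at WT 60h (SD, n = 2). The exact two-sided permutation test of WT 60h against WT 0h gave p = 0.333 for both classes, the smallest possible. Of 172 lost regions with H3K4me3 in both WT 0h libraries, 84 (48.8%) had none at WT 60h and 77 (44.8%) had none at CBP 0h. Among 737 such stable regions these were 12.3% and 26.9%. The 172 lost regions kept H3K27ac in both CBP 0h libraries in 27.9% of cases, against 37.0% of 4400 with no H3K4me3 at WT 0h. H3K27me3, the mark of Polycomb repression, overlapped 11 lost regions in any of its 8 libraries, and 0 in both WT 0h libraries.

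The median distance from a lost region to the next one was 44.9 kb. Another lost region lay within 5 kb of 22.0% of them and within 50 kb of 51.9%. Such distances were not computed for stable or gained regions. The nearest gained region was 189 kb away at the median, and 3.75% of lost regions had one within 5 kb. A region with a WT 60h peak lay within 50 kb of 65.9% of them. When lost regions up to 50 kb apart were joined, they formed 3119 loci, of which 2235 held 1 lost region. At least 4 were held by 156 loci, together 758 lost regions (16.3%). Up to 9 were held by 1 locus. One locus of 9 was inside ADAM12, which encodes a disintegrin metalloprotease of fusing muscle cells. It spanned 143 kb (chr14:135350441-135493595) and also held 2 stable and 0 gained regions. Others of 9 lay at LOC110259514 and across ANXA13, KLHL38 and FBXO32, the last of which encodes the muscle ubiquitin ligase atrogin-1. In the ADAM12 locus 3 of the 9 lost regions had both CBP 0h peaks and 0 had both CBP 60h peaks. The FOXP2 locus was chosen after its values were seen. It held 7 lost regions in 25.2 kb and no other distal region, and 5 of the 7 had both CBP 0h peaks and 0 both CBP 60h peaks.

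**Figure D3:**
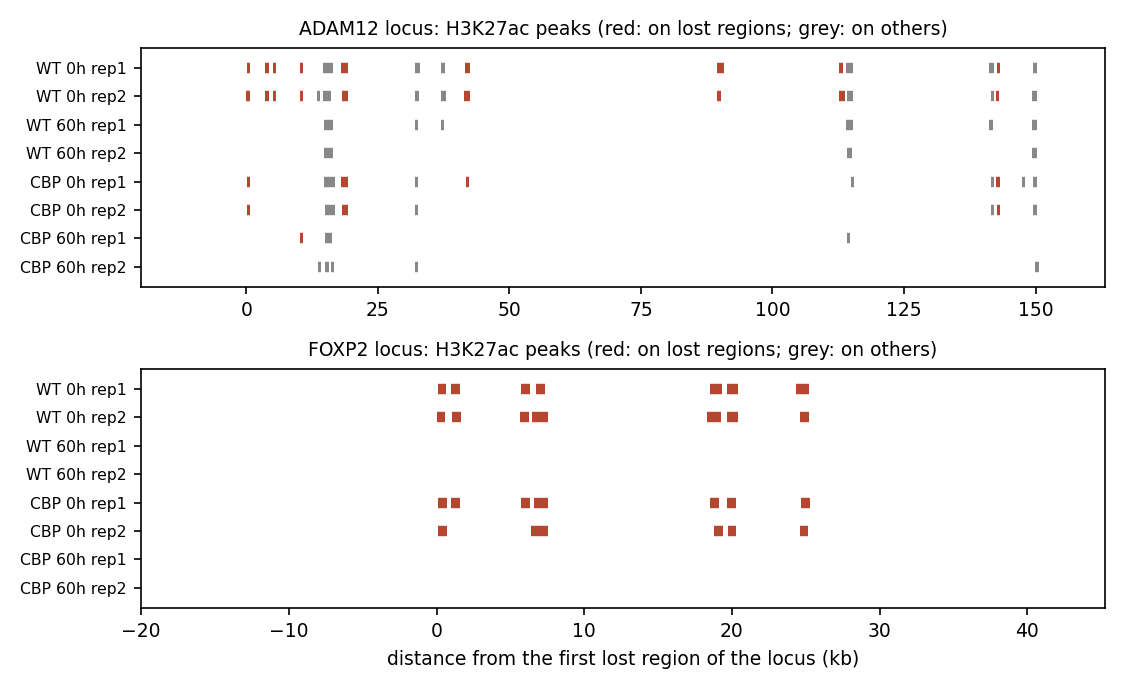
H3K27ac peaks (bars) of the 8 libraries (rows) at the ADAM12 and FOXP2 loci by distance from the first lost region in kb, drawn over the locus and 20 kb to each side; red bars lie on lost regions and grey bars on others, and bars under 0.6 kb are widened to that length. At FOXP2, 7 lost regions carried all peaks shown, and the 4 libraries at 60 h had none.

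By nearest protein-coding gene within 100 kb, lost regions lay near 2284 genes, 11.7% of the 19550 in the table. The median length of these genes was 84.7 kb, against 17.5 kb for the others, so long genes have more room to be counted. Being nearest does not show that a region acts on a gene. Of the 2284 genes, 764 (33.5%) were also nearest to a gained region, 931 (40.8%) to a stable one, and 1091 (47.8%) to lost regions only. A single lost region was counted at 1454 genes and 4 or more at 196. FRMD4A and PDE4D, which encodes a cAMP phosphodiesterase, had 12 each, all inside the gene. ADAM12 had 11, TANC1 10, and BCKDHB, CACNA2D3, ESRRG, KCNQ5, LOC110259514 and ZNF516 had 9 each. ESRRG, an orphan nuclear receptor gene, and KCNQ5, a potassium channel gene, had no stable or gained region near them. H3K27ac at the gene ends of ADAM12, a measure from the comparison that chose the regions, covered 2.54 and 2.92 kb at WT 0h, 1.02 and 0 kb at WT 60h, 2.48 and 1.79 kb at CBP 0h, and 0 and 0.30 kb at CBP 60h. Its H3K4me3 was lower at CBP 0h (1.25 and 1.09 kb) than in the 6 other libraries (1.59 to 2.19 kb). At GLIS1, a zinc finger factor gene named after its values were seen, 7 of 7 lost regions had a peak in both CBP 0h libraries.

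Gene lists were read against the 11.7% of all genes that were nearest to a lost region and the 12.8% nearest to a gained one. Among secreted and structural genes, 16 of 32 genes of the extracellular matrix list (50%) were near a lost region and 43.8% near a gained one. These genes had 42 lost regions in all. COL4A1, a basement membrane collagen gene, had 8, SERPINE2 6, TNC 5 and COL5A1 4. The adhesion and actin list had 17 of 44 (38.6%), among them TLN2 with 6 and CDH2, the N-cadherin gene, with 5, and 61.4% of its genes were near a gained region. Its median gene length was 95.1 kb, close to that of the genes near lost regions.

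Signalling lists were next. In the FGF, EGF and HGF list 14 of 33 genes (42.4%) were near a lost region and 27.3% near a gained one. HGF, the ligand of the MET receptor, had 6 lost regions, NRG1 5 and the receptor gene EGFR 4. The TGF-beta and BMP list had 15 of 33 (45.5%), the same share as for gained regions, with 6 at SMAD3, a transducer of TGF-beta, and 3 each at the receptor gene BMPR1B, the inhibitor gene ID3 and LTBP1. Notch genes came to 6 of 17 (35.3%), with 41.2% near a gained region. The coactivator genes MAML2 and MAML3 had 8 and 6 lost regions. WNT genes came to 8 of 36 (22.2%), with 30.6% near a gained region and 5 lost regions at the receptor gene ROR2. In the YAP/TAZ and TEAD list 8 of 18 genes were near a lost region and 72.2% near a gained one.

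Of the cell state lists, 10 of 21 satellite cell and progenitor genes (47.6%) were near a lost region and 33.3% near a gained one. SPRY1, an inhibitor of growth factor signalling, had 4, and CALCR and LRIG1 had 3 each. PAX7, MYF5 and MYOD1 had 0. The myogenic factor list had 9 of 20 near a lost region and 75% near a gained one, and TEAD1 had 5 lost and 17 gained regions. Contractile genes were near a lost region in 2 of 38 cases (TPM1 and MYOM2) and near a gained one in 31.6%. Of 37 cell cycle genes E2F8 alone was near a lost region, and 18.9% were near a gained one. The AP-1 and immediate early list had 6 of 18 (33.3%), with 44.4% near a gained region and 4 lost regions at IER3. Inflammatory genes had 8 of 25, with 24% near a gained region and 3 lost regions at the chemokine gene CCL2. The list of chromatin acetylation genes had 3 of 24, among them HDAC9 with 6, and 29.2% near a gained region. Of 26 markers of other cells, 8 were near a lost region, RUNX1 and SYT1 with 3 each, and 15.4% were near a gained one. These counts are descriptions, and no list was tested.

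**Figure D4:**
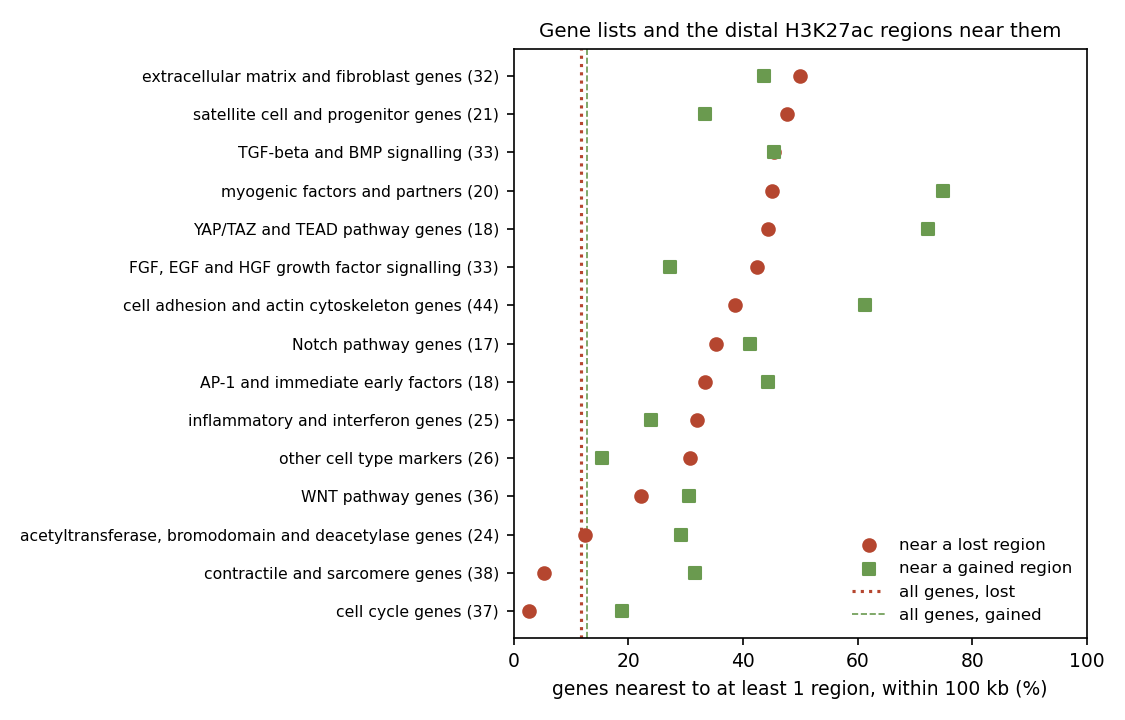
Share of each list's genes (number in brackets) that were the nearest gene, within 100 kb, of at least 1 lost region (red circles) or gained region (green squares), in percent; lines give the shares over all genes, 11.7 and 12.8%. Lost regions reached 50% of the extracellular matrix list and 2.70% of the cell cycle list.

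The state with the inhibitor was also read by list. Over all lost regions, 36.5% had both CBP 0h peaks, 52.0% had none and 4.78% had both CBP 60h peaks. Of the 19 lost regions near satellite cell genes, 9 had both CBP 0h peaks and 9 had none. Near myogenic factors 3 of 16 had both and 13 had none. WNT genes gave 3 with both and 13 with none out of 16, matrix genes 17 with both and 21 with none out of 42, and AP-1 genes 8 with both and 3 with none out of 14. At CBP 60h both peaks were present at 0 of the 19 lost regions near satellite cell genes, 2 of the 42 near matrix genes and 5 of the 27 near TGF-beta and BMP genes, 3 of these at SMAD3. Differences between the lists were not tested.

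H3K4me3 at the genes near lost regions did not enter the rule that chose the regions. The covered length near the gene ends (5 kb to each side) was fitted with limma over the 12908 genes that passed the same length filter in 2 or more of the 8 libraries, and 1786 of the 2284 genes were among them. At WT 60h against WT 0h, 156 (8.73%) were called lower and 702 (39.3%) higher. Of all genes tested 5.62% were called lower and 41.5% higher, so more genes near lost regions rose than fell, as in the rest of the table. The median change was 0.15 on the log2 scale of bp plus 500, against 0.17 for all genes. Genes near 4 or more lost regions had 22 lower and 51 higher of 159 (13.8% and 32.1%). Genes near gained but not lost regions had 2.46% lower and 55.9% higher. The H3K4me3 lists covered 21.5 and 21.8 Mb at WT 0h and 27 and 26.2 Mb at WT 60h, a rise that the calls share. When the libraries were scaled to the same distribution (quantile scaling), the median over all genes moved from 0.17 to −0.06. The calls at genes near lost regions then came to 520 lower and 296 higher, with 3380 and 2287 over all genes. With each WT library left out in turn, falls and rises were both fewer, and so were those over all genes.

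The largest falls among genes near lost regions, with no overlap between the groups, were at JPH3, ROBO1, LOC100525483, THBD, ENTPD3, HTR2A, PLEK2 and LOC110256583. At ROBO1 (chromosome 13, 175348223 to 176479482), an axon guidance receptor gene with 4 lost regions in its body, H3K4me3 covered 1.83 and 2.01 kb at WT 0h, 0.35 and 0 kb at WT 60h, 1.48 and 1.51 kb at CBP 0h, and 0.38 kb in both CBP 60h libraries. It fell by 1.89 at WT 60h (SE 0.23, limma adjusted p = 0.00115). PLEK2 (chromosome 7, 91110327 to 91133210), which encodes a pleckstrin family protein of the actin cytoskeleton, had 1.99 and 1.89 kb at WT 0h, 0.34 and 0.31 kb at WT 60h, 0.66 and 0.64 kb at CBP 0h, and 0.43 and 0.38 kb at CBP 60h. It was high at WT 0h alone, and fell by 1.56 at WT 60h (SE 0.07, limma adjusted p = 2.2e-05). JPH3, a junctophilin gene, had 2.67 and 2.03 kb at WT 0h, 0.38 and 0 kb at WT 60h, 1.85 and 1.67 kb at CBP 0h, and was listed at 0 in both CBP 60h libraries. THBD, the thrombomodulin gene, had 0.97 and 1.32 kb at WT 0h and was listed at 0 in the 6 other libraries. It passed the length filter through WT 0h alone, which fixes the direction of its change. ESRRG, with 9 lost regions, had 1.17 and 0.98 kb at WT 0h, 0.35 and 0.43 kb at WT 60h and 0.50 and 0.49 kb at CBP 0h, and was listed at 0 in both CBP 60h libraries. Its fall at WT 60h was 0.83 (SE 0.09, limma adjusted p = 0.000915).

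The largest rises were at IL4R, CAV3, HS6ST1, HFE2, EGLN3, ZMYND8, TRDN and KLHL31, all 8 listed at 0 in the 4 libraries at 0 h. They passed the length filter through the 60 h libraries alone, which fixes the direction of these rises. IL4R (chromosome 3, 19526343 to 19576792), the interleukin-4 receptor gene, had 2.54 and 2.53 kb at WT 60h and 2.81 and 2.80 kb at CBP 60h. CAV3 had 2.59 and 2.22 kb at WT 60h and 2.0 and 2.56 kb at CBP 60h. TRDN (chromosome 1, 39180544 to 39567245), which encodes triadin of the sarcoplasmic reticulum, had 1.76 and 2.14 kb at WT 60h and was listed at 0 in both CBP 60h libraries. For TRDN the filter was passed through WT 60h alone, which also fixes the direction of its fall with the inhibitor. KLHL31, a muscle gene of the kelch family, had 1.73 and 2.13 kb at WT 60h and 0.31 and 0.58 kb at CBP 60h. HFE2, the haemojuvelin gene, had 2.36 and 2.09 kb at WT 60h and 0.76 and 0.92 kb at CBP 60h. CAV3, EGLN3, ZMYND8, TRDN and KLHL31 were also nearest to 1 or 2 gained regions each, and IL4R, HS6ST1 and HFE2 to 0.

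**Figure D5:**
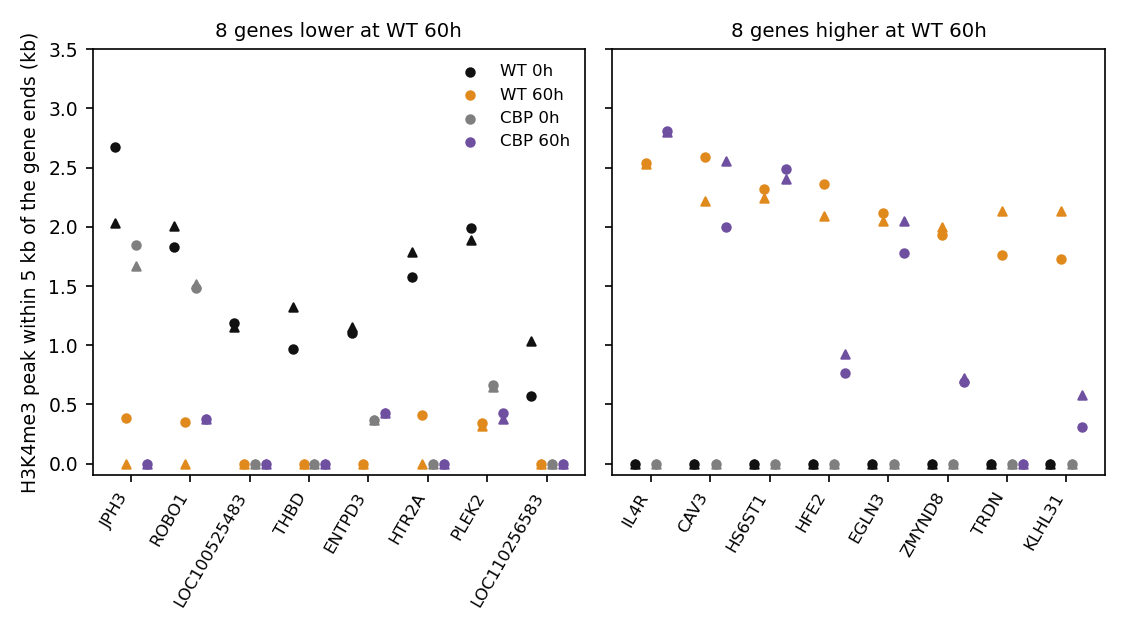
Length under H3K4me3 peaks within 5 kb of the gene ends in kb (vertical axis) for the 8 largest falls (left) and rises (right) at WT 60h among genes near lost regions; colours give the condition, circles replicate 1 and triangles replicate 2. The 8 genes on the right were listed at 0 in the 4 libraries at 0 h, and TRDN also at CBP 60h.

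Within the lists, H3K4me3 at WT 60h rose at more genes near lost regions than it fell in most lists. Quantile scaling turned this direction in several lists, and over all genes too (2287 rises and 3380 falls of 12908). Of 12 matrix genes tested, 6 rose and 1 fell, where 41.5% of all genes rose and 5.62% fell without that scaling. Under quantile scaling 4 matrix genes rose and 3 fell. The fall was at TNC, with 4.75 and 4.61 kb at WT 0h, 4.22 and 3.59 kb at WT 60h, 3.13 and 2.83 kb at CBP 0h, and 2.70 and 2.69 kb at CBP 60h. It amounted to 0.24 (SE 0.08, limma adjusted p = 0.0446), and the call was lost without WT 0h replicate 1, WT 0h replicate 2 or WT 60h replicate 2 (limma adjusted p = 0.155, 0.108 and 0.164). COL4A1 rose, from 1.38 and 1.42 kb at WT 0h to 3.85 and 3.42 kb at WT 60h, and had 0.55 and 0.52 kb at CBP 0h and 5.26 and 5.38 kb at CBP 60h. Of 16 adhesion genes 7 rose and 1 fell, and under quantile scaling 1 rose and 5 fell.

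Signalling genes near lost regions were read against the same 41.5% and 5.62% of all genes. Counts under quantile scaling were read against its 2287 rises and 3380 falls over all 12908 genes. Of 14 TGF-beta and BMP genes 8 rose and 2 fell (3 and 3 under quantile scaling). SMAD3 rose, with 2.05 and 2.53 kb at WT 0h and 4.59 and 4.03 kb at WT 60h. ID3 fell, with 4.17 and 4.50 kb at WT 0h and 2.88 and 3.21 kb at WT 60h, a call lost without any 1 of these 4 libraries (limma adjusted p = 0.0633 to 0.14). Of 6 Notch genes 4 rose and 1 fell (3 and 2 under quantile scaling). The fall was at RBPJ, the DNA-binding factor of the pathway, with 0.59 and 0.67 kb at WT 0h and listed at 0 in both WT 60h libraries. LFNG, a Notch-modifying glycosyltransferase gene, rose from 1.04 and 1.16 kb to 3.31 and 3.30 kb, and MAML2 from 1.77 and 1.54 kb to 3.92 and 3.77 kb. Of 7 WNT genes 1 rose and 3 fell (0 and 5 under quantile scaling), among them DKK2, a WNT antagonist gene, with 2.63 and 2.67 kb at WT 0h and 1.86 and 1.85 kb at WT 60h. Of 11 growth factor genes 6 rose and 2 fell (2 and 3 under quantile scaling). EGFR rose, with 1.44 and 1.31 kb at WT 0h and 3.42 and 3.48 kb at WT 60h. HGF was listed at 0 in all libraries but those of WT 60h, with 0.66 and 0.62 kb. It passed the length filter through that group alone, which fixes the direction of its rise.

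Of 9 satellite cell genes near lost regions 3 rose and 0 fell in limma at WT 60h (4 and 0 at an unadjusted p below 0.05), and under quantile scaling 0 rose and 3 fell. The shares over all genes were 41.5% and 5.62%, and under quantile scaling 2287 of all 12908 genes rose and 3380 fell. Of 6 myogenic factor genes 5 rose and 0 fell (unadjusted 5 and 0; 3 and 0 under quantile scaling). YAP/TAZ and TEAD genes gave 6 rises and 0 falls of 7 (unadjusted 6 and 0; 4 and 0 under quantile scaling), and AP-1 genes 4 and 0 of 6 (unadjusted 4 and 0; 1 and 1 under quantile scaling). Of 4 inflammatory genes CCL2 fell, with 2.27 and 2.52 kb at WT 0h and 1.5 and 1.4 kb at WT 60h. That call too was lost without any 1 of the 4 libraries (limma adjusted p = 0.0693 to 0.118).

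With the inhibitor in proliferation, H3K4me3 fell at far more genes near lost regions than it rose, a surplus that was small under quantile scaling. At CBP 0h against WT 0h, 847 of 1786 (47.4%) were called lower and 22 (1.23%) higher, and over all genes 40.0% were called lower and 1.32% higher. The medians were −0.22 and −0.18. Genes near stable but not lost regions were close to those near lost regions, with 47.1% lower, 1.22% higher and a median of −0.21. This comparison and that of WT 60h with WT 0h share the WT 0h libraries. The H3K4me3 lists at CBP 0h covered 17.0 and 17.2 Mb, and the part of this in the calls was not tested. Under quantile scaling the median over all genes moved to 0.05. The calls at genes near lost regions then came to 290 lower and 214 higher, with 1699 and 1810 over all genes. The largest falls without overlap were at VGF, PAPPA, HTR2A and ADAMTSL4. VGF (chromosome 3, 8888502 to 8891399), a secreted neuropeptide precursor gene, had 3.57 and 3.47 kb at WT 0h and 0.07 and 0.44 kb at CBP 0h, a fall by 2.47 (SE 0.33, limma adjusted p = 0.00232). PAPPA, a protease of insulin-like growth factor binding proteins, had 2.16 and 1.76 kb at WT 0h and was listed at 0 in both CBP 0h libraries. The largest rises were at GNG7, TYSND1, MCC and LOC100737060. TYSND1, a peroxisomal protease gene, had 0.59 and 0.43 kb at WT 0h and 1.39 kb in both CBP 0h libraries, a rise of 0.91 (SE 0.08, limma adjusted p = 0.000583). The call at MCC was lost without WT 0h replicate 1, WT 0h replicate 2 or CBP 0h replicate 1 (limma adjusted p = 0.116, 0.122 and 0.176), at an offset of 2000 bp (0.106) and with a −log10 q of at least 5 (0.316). With that threshold GNG7 had a change of 0 (limma adjusted p = 1), and LOC100737060 one of −0.47 (0.128). Lists of equal length also ended the call at LOC100737060 (limma adjusted p = 0.386). Leaving out each WT 0h or CBP 0h library in turn gave fewer falls and fewer rises, over all genes too.

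By list, the falls at CBP 0h took in 10 of 12 matrix genes near lost regions, 7 of 9 satellite cell genes, 12 of 16 adhesion genes and 6 of 7 WNT genes, read against the 40.0% of all genes above. Over the whole lists, near a lost region or not, they took in 22 of 26 matrix, 11 of 18 satellite cell, 21 of 42 adhesion and 20 of 32 WNT genes. Under quantile scaling the falls near lost regions were 5, 4, 3 and 3, with 0, 1, 2 and 0 rises. Over all 12908 genes quantile scaling gave 1699 falls and 1810 rises. Near lost regions, the falls took in 4 of 11 growth factor genes and 2 of 6 Notch genes (16 of 29 and 5 of 15 over the whole lists). For those near lost regions, quantile scaling gave 1 fall and 4 rises, and 0 falls and 2 rises. CAV1, the caveolin-1 gene, had 3.91 and 3.87 kb at WT 0h and 1.93 and 2.29 kb at CBP 0h, and fell by 0.76 (SE 0.09, limma adjusted p = 0.00134). CCL2 had 0.57 and 0.25 kb at CBP 0h, the lowest of its 8 libraries, and fell by 1.69 (SE 0.16, limma adjusted p = 0.000753). AMOTL2, a target gene of YAP, had 4.78 and 4.44 kb at WT 0h and 2.19 and 2.16 kb at CBP 0h. FOSL2, an AP-1 subunit gene, had 4.76 and 5.29 kb at WT 0h and 2.75 and 2.78 kb at CBP 0h. Both CBP 0h values of each of these 4 genes were below all 6 others.

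At 60 h, against WT 60h, 112 of 1786 (6.27%) were lower and 154 (8.62%) higher at CBP 60h, and over all genes 6.49% were lower and 9.88% higher. This comparison shares the WT 60h libraries with that of WT 60h and WT 0h. With each WT 60h or CBP 60h library left out in turn, the calls lower and higher were both fewer, and so were those over all genes. The largest falls were at TRDN, GFRA2, FAT3 and COL26A1. GFRA2 (chromosome 14, 5743583 to 5837470), a receptor gene of the GDNF family with 4 lost regions, had 4.76 and 4.67 kb at WT 0h, 3.40 and 3.38 kb at WT 60h, 3.14 and 2.34 kb at CBP 0h, and 0.51 and 0.41 kb at CBP 60h. It fell by 2.02 against WT 60h (SE 0.12, limma adjusted p = 0.000257). FAT3, an atypical cadherin gene, had 1.38 and 1.30 kb at WT 60h and was listed at 0 in both CBP 60h libraries. The largest rises were at KIF26B, ZFHX3, TACR1 and SH2D6. KIF26B (chromosome 10, 17708365 to 18220052), a kinesin family gene, had 0.40 and 0.63 kb at WT 60h and 3.09 and 3.06 kb at CBP 60h, a rise of 1.83 (SE 0.23, limma adjusted p = 0.00474). With a window of 2 kb around the gene ends the KIF26B rise was 0.30 (limma adjusted p = 0.425), and at an offset of 100 bp the call was lost too (0.0603). The SH2D6 call was lost without WT 60h replicate 2, CBP 60h replicate 1 or CBP 60h replicate 2 (limma adjusted p = 0.0989, 0.0744 and 0.166), with the replicate block (0.0599) and at an offset of 100 bp (0.0894). With a −log10 q of at least 5 or lists of equal length its change was 0.32 (limma adjusted p = 0.76 and 0.751). ZFHX3, a homeobox factor gene with 4 lost regions, was listed at 0 at WT 60h and CBP 0h and had 0.36 and 0.74 kb at WT 0h and 1.42 and 1.05 kb at CBP 60h. The effect of the inhibitor at 60 h differed from that at 0 h for 780 of the 1786 genes near lost regions (43.7%), and for 40.1% of all genes (limma interaction term, adjusted p below 0.05).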

How the data were processed

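The authors deposited 1 peak list per library for 24 of the 32 samples; the 8 IgG samples were not analysed here. Per the submitters' processing notes, reads were trimmed with Trimmomatic and peaks called with MACS2 2.1.0 on the build Sscrofa11.1. The aligner was not given in the sources used here, nor were calling options and control. Read depth is unknown, and so is the precision it gives. The deposited score column is the MACS2 display score and was not used. As deposited, the ratio column holds each peak's fold enrichment and the −log10 p and −log10 q columns its significance, all computed within 1 library. Only ranks of −log10 p within a list were used, and −log10 q as a filter. The other deposited column is the summit offset, not used.

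Members and gene lists were chosen with earlier results of these data known. Regions were built with Python 3.11.15 and pandas 2.3.3, and covered lengths of all regions or genes were fitted with limma 3.58.1 in R 4.3.3 (trend and robust, Benjamini-Hochberg adjustment, adjusted p below 0.05) on log2 of bp plus 500. The filter was at least 200 bp in at least 2 libraries. The H3K27ac fit used the 4 CBP libraries and left 2 residual degrees of freedom; the H3K4me3 fit used all 8 and left 4. Functions were tested on simulated data. A changed gene listed at 0 in 1 group is given by its lengths, with no fold, except among the results flagged for a closer look. The gene table (RefSeq, Sscrofa11.1, placed chromosomes) gave 19550 protein-coding genes without strand, so both gene ends were used; unplaced scaffolds were left out. Genes named were those with the most lost regions, the largest changes in H3K4me3 without overlap, and up to 4 of each list; regions named were those ranked highest at WT 0h or CBP 60h. Offset, filter, scaling, peak threshold, list length, overlap, distance, window, replicate block and each left-out library were varied. A few genes and the results that need them are not reported here.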

Additional observations from a re-analysis of the deposited data

Results flagged for a closer look

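At 14 genes near lost regions the change of H3K4me3 with the inhibitor at 60 h differed from that at 0 h, by the limma interaction term (adjusted p from 0.000482 to 0.032, n = 2 libraries a group); these genes were named for a large change in one of the 2 inhibitor comparisons, and 40.1% of all genes passed the same test. Differences are given as the log2 change at 60 h minus that at 0 h, on the scale of bp plus 500. Where a group is listed at 0 they depend on that offset and are no bound. Positive values were found at ZFHX3 (2.84), PAPPA (2.46), KIF26B (2.19), ADAMTSL4 (1.99), TACR1 (1.72), HTR2A (1.69) and VGF (1.67). ADAMTSL4 had 0.24 and 0 kb at CBP 0h against 1.74 and 1.92 kb at WT 0h, while CBP 60h (3.49 and 3.62 kb) and WT 60h (3.53 and 3.26 kb) overlapped. HTR2A, a serotonin receptor gene, was listed at 0 in all 4 CBP libraries, and its WT values were 1.58 and 1.78 kb at 0 h and 0.41 and 0 kb at 60 h. Negative values were found at TRDN (−2.29), FAT3 (−1.46), GFRA2 (−1.32), COL26A1 (−0.90), TYSND1 (−0.84), GNG7 (−0.71) and LOC100737060 (−0.45). TRDN had H3K4me3 at WT 60h only and passed the length filter through that group alone. This fixes the direction of its value, which is a description, and the lowest adjusted p above was that of TRDN. COL26A1, a collagen gene, had 1.19 kb in both WT 60h libraries and was listed at 0 in both CBP 60h libraries.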

How the results depend on the processing

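Requiring a −log10 q of at least 5 gave 2779 lost and 1989 stable regions, with both CBP 0h peaks at 20.7% and 34.3%. It gave 492 lost regions called lower at CBP 60h against CBP 0h (1293 over all regions). Lists cut to equal length gave 3035 lost and 1469 stable regions. Both CBP 0h peaks were then at 52.6% (stable 67.8%) and both CBP 60h peaks at 8.01% (stable 63.6%). When a peak had to cover at least 50% of a region, there were 4950 lost and 2246 stable regions. Both CBP 0h peaks were at 25.9% (stable 28.7%) and both CBP 60h peaks at 3.23% (stable 35.0%). Quantile scaling gave 50 lost regions called higher at CBP 60h against CBP 0h (5061 over all regions). In H3K4me3 at genes near lost regions it gave 520 lower and 296 higher for WT 60h against WT 0h (3380 and 2287 over all genes). For CBP 0h against WT 0h it gave 290 and 214 (1699 and 1810 over all genes). A window of 2 kb gave 62 genes lower for CBP 60h against WT 60h (592 over all genes). The cause of these moves was not tested.

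Each library was left out in turn. Without a WT library the number of lost regions was 4973 to 6348. The share with both CBP 0h peaks was then 29.6 to 37.4%, and with both CBP 60h peaks 4.33 to 6.70%. Without a CBP library, the share with a peak in the remaining library of its group was 39.1 or 45.4% at CBP 0h and 7.62 or 9.54% at CBP 60h. Lost regions called lower at CBP 60h were 0 to 1201 and higher 0 to 44. Fewer lost regions pass the filter with 3 libraries, but the cause of the range of higher calls was not tested. Keeping the regions of the full fit, an alternative chosen after seeing the data, gave 1450 and 1458 lower and 55 and 49 higher without CBP 0h replicate 1 and 2, and 835 and 800 lower and 89 and 95 higher without CBP 60h replicate 1 and 2. A lone library was assumed to vary like the other group. In the H3K4me3 fits given next, calls over all genes were also fewer than with every library. Genes near lost regions were 97 to 110 lower and 440 to 549 higher for WT 60h against WT 0h, 589 to 687 and 14 to 18 for CBP 0h against WT 0h, and 48 to 77 and 71 to 86 for CBP 60h against WT 60h.

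Deviations in covered length of same-numbered libraries correlated at −0.04 to 0.04 between conditions. This cannot show whether same-numbered libraries shared a culture or batch. With the replicate block, H3K27ac calls were 1474 lower and 85 higher, and H3K4me3 calls 150 and 660, 814 and 15, and 101 and 132 for the 3 comparisons in the order above. Of 915 values of 78 changes at named genes under alternatives, 805 kept direction and call, 68 lost the call, 17 gained it and 25 changed sign, of which 3 had been called. These 3 were LOC100737060 at CBP 0h with a −log10 q of at least 5 (−0.4688), and CRIM1 (−0.0209) and TCF12 (−0.0173) at WT 60h under quantile scaling. The others were at WT 60h. Quantile scaling gave ADAM12 −0.1645, CAV1 −0.1265, IER3 −0.0903, KCNQ5 −0.1478, LRIG1 −0.0524, LTBP1 −0.1481, PDGFC −0.0394, TANC1 −0.1326, TCF7L2 −0.0608, TLN2 −0.0709 and TPM1 −0.109, and it called falls at CDH2 (−0.1519), MAML3 (−0.1988), SPRY1 (−0.2176) and ZNF516 (−0.1411). A window of 2 kb gave ADAM12 −0.2571, MAML3 −0.0386 and TPM1 −0.0943. With each library left out in turn, ADAM12 ranged from −0.0149 and −0.078 (without WT 0h replicate 1 and WT 60h replicate 2) to 0.1446, KCNQ5 from −0.0268 (without WT 60h replicate 1) to 0.1086, and SPRY1 from −0.008 (without WT 0h replicate 1) to 0.0283. No read depth was given, so a region with no peak cannot be told from one too weakly covered to be called.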
